A study of Mus musculus with 24 samples.

Results

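Gpnmb, Spp1, Cd44, Lgals3, Lgals1, Fabp4 and Fabp5 are 7 of the 54532 genes in the deposited count table of a study of bone marrow macrophages and the osteoclasts they form. They were chosen with earlier results of these data known, taken by gene symbol and followed through all 24 libraries. The cells labelled LysM-Cre;Rosa26-Runx1tg/+ had a transgene for Runx1 in the Rosa26 locus together with Cre expressed from the lysozyme M gene of myeloid cells, and are described as gain of function or over expression of Runx1. The controls, labelled wild type, were Rosa26-Runx1tg/+, so they carried the same transgene without Cre. Each genotype was sampled at days 5 and 3, either in medium with 50 ng/mL RANKL, the cytokine that turns macrophages into osteoclasts, and 30 ng/mL M-CSF, or in M-CSF alone, at a dose the labels do not state. That makes 8 groups of 3 libraries, and the series concerns Runx1 overexpressed in osteoclast precursors. The labels number the libraries of a group 1 to 3 without saying whether a number is an animal, a culture or a day. The p-values thus measure only the spread between these samples, which may be technical, except that sex-linked counts, given below, set number 3 labelled LysM-Cre apart.

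Gpnmb encodes a heavily glycosylated membrane protein, also called osteoactivin, that is made by macrophages, osteoclasts and melanocytes. Spp1 encodes osteopontin, a secreted phosphorylated glycoprotein of bone matrix that anchors osteoclasts through αv integrins and is also bound by CD44, the cell surface receptor for hyaluronan. Lgals3 and Lgals1 encode galectin-3 and galectin-1, lectins that bind the sugar chains of glycoproteins and are not themselves matrix components. Fabp4 and Fabp5 encode small cytosolic carriers of fatty acids, found in adipocytes, endothelial cells and macrophages, and are grouped with the others as companions in lipid-handling macrophages rather than as glycoproteins.

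The promoters of Gpnmb, Spp1 and Cd44 are shown because their transcripts answered RANKL differently: Spp1 fell and Cd44 rose with RANKL on both days. Gpnmb was called lower at day 3 and was not called either way at day 5, and its difference between the days was not called. The sequences are from RefSeq on GRCm38.p6, run 5′ to 3′ on the gene's strand, and cover 250 bases before the start and 20 bases after it. Capitals mark matches to the motifs searched on both strands, which were CATGTG and CACGTG (the forms bound by MITF and its relatives), TGANTCA (the AP-1 form) and TGTGGT (the core of the Runx form). The windows are chr6:49036268-49036537 (plus strand) for Gpnmb, chr5:104434861-104435130 (plus strand) for the upstream start of Spp1, and chr2:102901646-102901915 (minus strand) for Cd44.
Gpnmb: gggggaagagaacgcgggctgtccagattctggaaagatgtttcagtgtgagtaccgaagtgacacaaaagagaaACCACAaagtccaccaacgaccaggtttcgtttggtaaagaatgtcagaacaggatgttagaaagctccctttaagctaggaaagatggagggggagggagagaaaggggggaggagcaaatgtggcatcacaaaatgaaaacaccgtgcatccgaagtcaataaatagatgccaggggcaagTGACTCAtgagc
Spp1: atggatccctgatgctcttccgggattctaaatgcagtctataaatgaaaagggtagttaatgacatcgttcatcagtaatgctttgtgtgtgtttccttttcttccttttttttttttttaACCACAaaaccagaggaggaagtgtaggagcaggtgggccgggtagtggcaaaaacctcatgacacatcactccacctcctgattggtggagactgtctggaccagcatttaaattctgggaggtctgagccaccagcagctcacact
Cd44: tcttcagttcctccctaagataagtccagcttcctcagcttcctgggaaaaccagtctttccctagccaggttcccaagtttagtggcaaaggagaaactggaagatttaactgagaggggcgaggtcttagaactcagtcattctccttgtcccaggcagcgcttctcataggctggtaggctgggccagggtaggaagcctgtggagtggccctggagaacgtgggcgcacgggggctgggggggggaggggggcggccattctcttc
In the full window, which ends 50 bases after the start, Gpnmb had a TGANTCA match at base 9 after its start and a TGTGGT match, read as ACCACA on this strand, 175 bases before it. Spp1 had a TGTGGT match, also as ACCACA, 128 bases before its upstream start. The window of its downstream start, not printed here, had no match and was 36.7% G or C. Cd44 and Lgals3 had no match to any of these motifs. Among 32851 promoters of that length, 16.8% held TGTGGT, 14.2% CATGTG, 7.81% TGANTCA and 7.15% CACGTG, so matches of this kind are common, and a match is a description of the letters and not a site of binding. The windows of Gpnmb and of the upstream start of Spp1 were 47.7% and 45.3% G or C, those of Cd44 and Lgals3 58.0% and 67.0%, and the median promoter 52.7%. Promoters of Lgals1, Fabp4 and Fabp5 were not matched in the table used.

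All 7 genes are protein coding, and positions are those of the deposited table, which match GRCm38. Gpnmb (ENSMUSG00000029816) lies on chromosome 6 from 49036546 to 49070929, Spp1 (ENSMUSG00000029304) on chromosome 5 from 104435118 to 104441050, and Cd44 (ENSMUSG00000005087) on chromosome 2 from 102811141 to 102901665. Lgals3 (ENSMUSG00000050335) lies on chromosome 14 from 47367751 to 47386160 and Lgals1 (ENSMUSG00000068220) on chromosome 15 from 78926725 to 78930465. Fabp4 (ENSMUSG00000062515) and Fabp5 (ENSMUSG00000027533) share chromosome 3, from 10204088 to 10208576 and from 10012548 to 10016607, on opposite strands. Cd44 and Fabp4 are on the minus strand and the others on the plus strand. Loci that overlap the 7 genes or are named like them had few counts, which does not show if reads were shared with these or other loci. Gm42793, which overlaps Spp1, had 566 counts over all libraries against 1163879 for Spp1. Gm23731, inside Cd44, had 32 against 308555, the processed pseudogene Fabp5l2 had 12 against 122260 for Fabp5, and the pseudogenes Lgals1-ps1 and Lgals1-ps2 had 0.

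The libraries held 18975750 to 36523995 counts assigned to genes, and levels are given as CPM, counts scaled to a total of 1000000, of the library size after TMM scaling. The genotype labels were checked with Runx1, which averaged 80.6 ± 15.1 CPM in libraries labelled LysM-Cre and 68.6 ± 2.56 CPM in controls at day 5 with RANKL (SD, n = 3 each), and was not called in any of the 4 genotype comparisons (log2 fold changes 0.00 to 0.23, adjusted p = 1 in each, edgeR). No source used here says if reads from the transgene were assigned to the Runx1 gene, so the libraries are called labelled LysM-Cre throughout. The cell type label of all libraries is osteoclasts, but 10 osteoclast markers summed to 36220 to 59916 CPM with RANKL and to 111 to 175 CPM in M-CSF alone. The 8 macrophage markers summed to 2998 to 4724 CPM with RANKL and to 8084 to 12078 CPM in M-CSF alone, and the part of this change in cells in the RANKL results was not tested. The 4 libraries with number 3 labelled LysM-Cre had 2576 Y-linked counts in all and 2 to 12 Xist counts each. The other libraries had at most 2 Y-linked counts per set of 4 and at least 14963 Xist counts each. By these counts the cells of number 3 labelled LysM-Cre were male on both days and in both media, and all others were female. Number 3 was thus no technical repeat of numbers 1 and 2 there. The main fit had no term for the number and treated all libraries as independent. Values without number 3 labelled LysM-Cre are given where they end a call or turn a direction.

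The 7 genes together took between 0.62% and 1.09% of all counts in the group means. The lowest share was that of cells labelled LysM-Cre at day 3 with RANKL, 0.621% ± 0.0367, next to 0.688% ± 0.0161 in controls (SD, n = 3 each). In the other 6 groups the mean share was 0.971% to 1.09%. Gpnmb was the most counted of the 7 in every group. Its level ran from 2550 to 5908 CPM over the 24 libraries, a range of 2.32-fold. Lgals3 varied least between libraries (1.74-fold, 1094 to 1906 CPM) and Fabp4 most (17.0-fold, 0.861 to 14.6 CPM). Spp1 varied 3.99-fold, Cd44 5.18-fold, Fabp5 6.25-fold and Lgals1 7.87-fold.

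**Figure D1:**
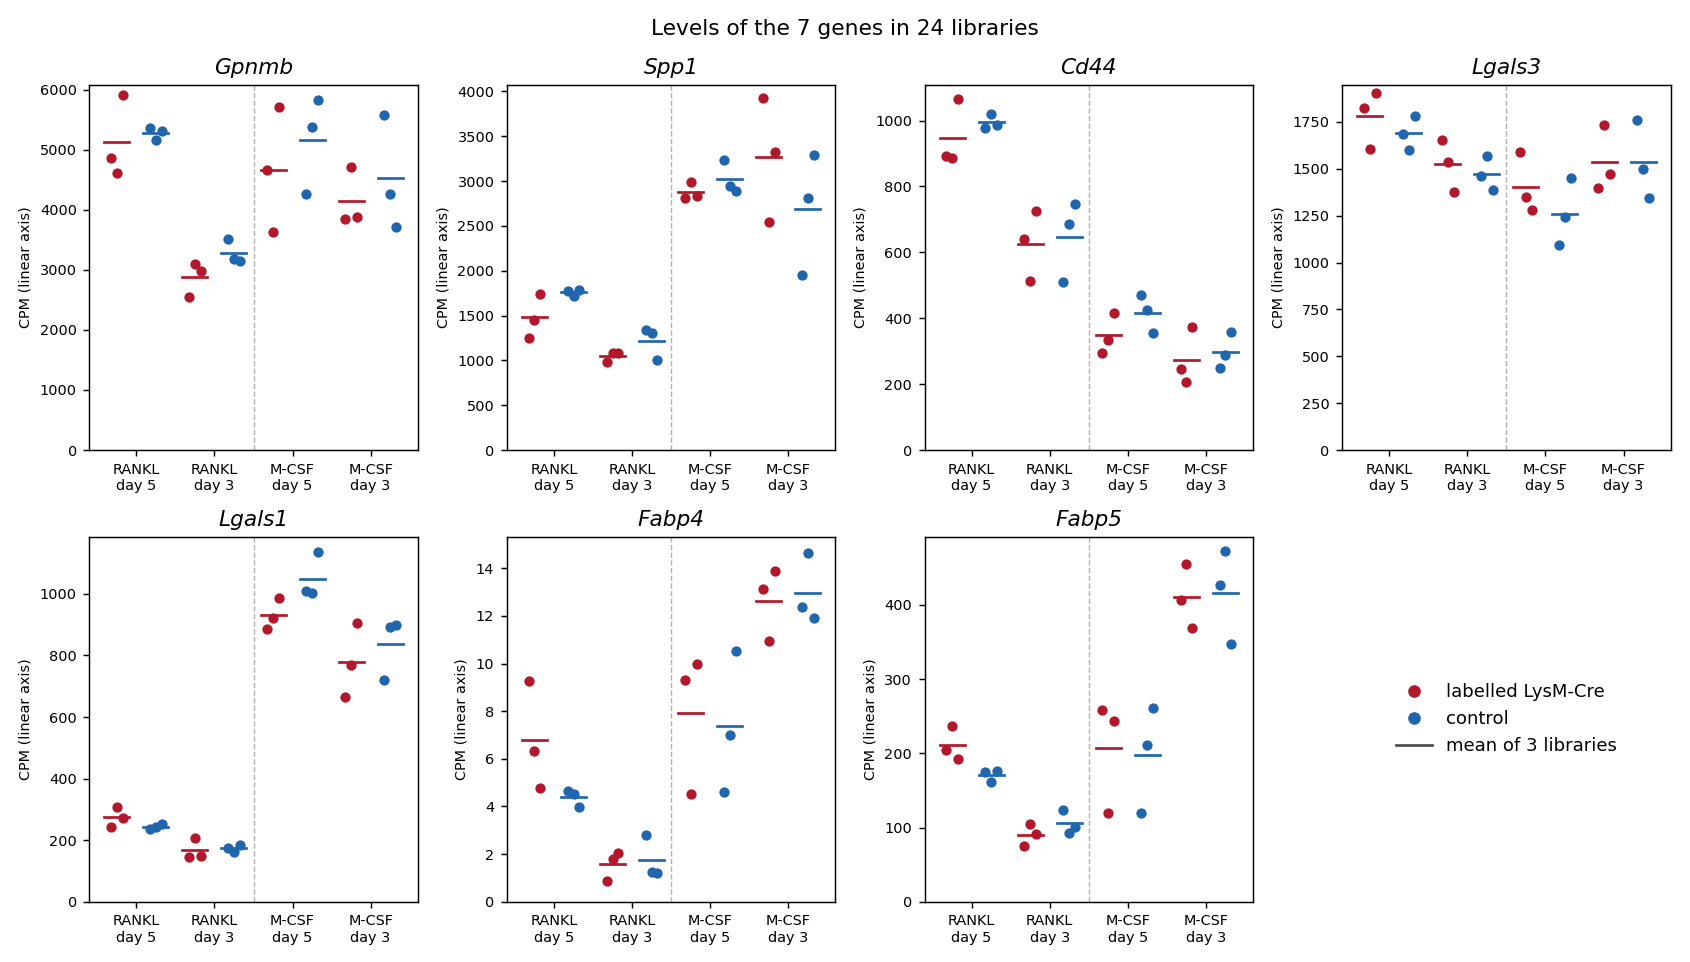
Level of each gene in CPM (linear axis from 0) in every library, with RANKL at left and M-CSF alone at right, day 5 before day 3, libraries labelled LysM-Cre in red and controls in blue, and the mean of 3 libraries as a bar. Lgals1 and Spp1 are low with RANKL, Cd44 is high with RANKL, and Fabp4 and Fabp5 are lowest at day 3 with RANKL.

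Levels of different genes can be compared only per length. Divided by the gene length in the deposited table, Spp1 ranked first in all 4 M-CSF groups, at 1631 to 1981 CPM per kb. At day 3 with RANKL, Lgals3 ranked first, at 820 CPM per kb in libraries labelled LysM-Cre and 792 CPM per kb in controls. In controls its range overlapped that of Spp1 (747 to 843 and 610 to 812 CPM per kb). Fabp4 ranked last in every group, at 0.349 to 2.89 CPM per kb. These ranks depend on the length used. The deposited length of Fabp4 is 4489 bases, its whole span with introns, while its longest coding transcript in GENCODE M21 is 896 bases, and for Gpnmb the 2 lengths are 6514 and 3701 bases. Per kb of the longest coding transcript, Gpnmb ranked first at day 5 with RANKL, at 1385 CPM per kb in libraries labelled LysM-Cre and 1426 CPM per kb in controls. Its range overlapped that of Lgals3 in libraries labelled LysM-Cre (1246 to 1596 and 1131 to 1343 CPM per kb). With that length, too, Spp1 ranked first in M-CSF alone and Fabp4 last in every group. In controls at day 3 in M-CSF alone the range of Spp1 then overlapped that of Gpnmb (1385 to 2332 and 1003 to 1509 CPM per kb).

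Cells with RANKL were set against cells in M-CSF alone to ask what osteoclast formation does to these genes. Cd44 rose and Spp1 and Lgals1 fell in both genotypes on both days. Fabp4 and Fabp5 fell by 3.92-fold or more at day 3 and were not called at day 5, a modest fall of Gpnmb was called at day 3 and a modest rise of Lgals3 at day 5. For Gpnmb and Lgals3 the difference between the days, given further on, was not called. At day 5, 4 of the 7 genes were called in cells labelled LysM-Cre and 4 in controls, against 52.4% and 49.4% of the 15035 genes tested, and at day 3 it was 6 and 6 genes, against 59.2% and 59.1%. A call is a Benjamini-Hochberg adjusted p under 0.05 in edgeR's quasi-likelihood test. Over the 7 genes the median log2 fold change at day 3 was −1.64 in cells labelled LysM-Cre and −1.15 in controls, and over all genes −0.02 and −0.03. At day 5 it was 0.03 and −0.21, and over all genes 0.03 and 0.03. Since these are bulk cultures, fewer cells of a type and less RNA per cell cannot be told apart in any of these comparisons.

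Osteopontin transcripts fell with RANKL. At day 5, Spp1 had 1245, 1454 and 1740 CPM with RANKL and 2811, 2991 and 2836 CPM in M-CSF alone in libraries labelled LysM-Cre. In controls it had 1777, 1720 and 1783 CPM with RANKL, and 3235, 2945 and 2887 CPM in M-CSF alone. At day 3 the libraries labelled LysM-Cre had 985, 1079 and 1087 CPM with RANKL, and 3926, 2542 and 3328 CPM in M-CSF alone. Every library with RANKL was below every library in M-CSF alone in these comparisons, and also in controls at day 3, with 1337, 1300 and 1005 CPM against 1955, 2817 and 3291 CPM. The fall was 1.95-fold at day 5 and 3.11-fold at day 3 in cells labelled LysM-Cre (log2 −0.96, SE 0.17, adjusted p = 5.71e-05, and −1.64, SE 0.17, adjusted p = 4.20e-08, edgeR). In controls it was 1.72-fold at day 5 and 2.21-fold at day 3 (log2 −0.78, SE 0.17, adjusted p = 5.20e-04, and −1.15, SE 0.17, adjusted p = 5.22e-06). By mean level, the 4 M-CSF groups of Spp1 came first, at 3265 to 2687 CPM, with ranges that overlapped their neighbours. They stood apart from the 4 RANKL groups, which ran from 1760 CPM in controls at day 5 down to 1050.4 CPM in cells labelled LysM-Cre at day 3 with ranges that again overlapped from each neighbour to the next.

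Cd44, a receptor for both osteopontin and hyaluronan, moved the other way. At day 5 it had 891, 885 and 1065 CPM with RANKL and 296, 333 and 416 CPM in M-CSF alone in libraries labelled LysM-Cre. In controls it had 977, 1020 and 987 CPM with RANKL, and 470, 424 and 354 CPM in M-CSF alone. All libraries with RANKL were above all in M-CSF alone. At day 3 the libraries labelled LysM-Cre had 639, 514 and 725 CPM with RANKL, and 246, 205 and 373 CPM in M-CSF alone. Controls had 511, 685 and 748 CPM with RANKL, and 249, 289 and 359 CPM in M-CSF alone, again with no overlap. The rise was 2.72-fold and 2.39-fold at day 5 and 2.28-fold and 2.17-fold at day 3, in cells labelled LysM-Cre and in controls at each day (log2 1.44, 1.26, 1.19 and 1.12, SE 0.20 each, adjusted p = 4.13e-06, 2.19e-05, 3.11e-05 and 6.33e-05).

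Gpnmb, the gene with the most counts of the group, kept a high level under all conditions. At day 3 it had 2550, 3101 and 2973 CPM with RANKL and 3850, 4714 and 3884 CPM in M-CSF alone in libraries labelled LysM-Cre. Controls had 3511, 3183 and 3153 CPM with RANKL, and 5584, 4267 and 3711 CPM in M-CSF alone. The groups did not overlap in either genotype, although the highest control library with RANKL came close to the lowest in M-CSF alone. The fall at day 3 was 1.44-fold in cells labelled LysM-Cre (log2 −0.53, SE 0.16, adjusted p = 0.00816) and 1.38-fold in controls (log2 −0.46, SE 0.16, adjusted p = 0.0189). The call in controls was lost without number 1 in M-CSF alone (Gpnmb log2 −0.29, adjusted p = 0.137), and without number 3 with RANKL (log2 −0.43, adjusted p = 0.0582). At day 5, Gpnmb had 4854, 4613 and 5908 CPM with RANKL and 4668, 3621 and 5712 CPM in M-CSF alone in libraries labelled LysM-Cre, and 5359, 5162 and 5316 CPM against 4265, 5380 and 5832 CPM in controls. These ranges overlapped, and the day 5 log2 fold changes were 0.14 (95% interval −0.20 to 0.47) and 0.03 (−0.30 to 0.37). The 6 groups other than RANKL at day 3 overlapped from neighbour to neighbour in the order of means, from 5279 CPM in controls at day 5 with RANKL to 4149 CPM in cells labelled LysM-Cre at day 3 in M-CSF alone.

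The galectins differed in size of response. Lgals1, which is secreted and active against T cells, had 244, 309 and 271 CPM with RANKL and 885, 922 and 985 CPM in M-CSF alone in libraries labelled LysM-Cre at day 5. Controls at day 5 had 238, 242 and 253 CPM with RANKL, and 1008, 1001 and 1136 CPM in M-CSF alone. At day 3 the libraries labelled LysM-Cre had 144, 208 and 150 CPM with RANKL, and 665, 769 and 905 CPM in M-CSF alone. The RANKL libraries were thus all at or under 309 CPM and the M-CSF libraries all at or over 665 CPM, controls at day 3 included (176, 161 and 183 CPM against 720, 893 and 900 CPM). The fall was 3.39-fold and 4.29-fold at day 5 and 4.65-fold and 4.83-fold at day 3 in cells labelled LysM-Cre and in controls (log2 −1.76, −2.10, −2.22 and −2.27, SE 0.14 each, adjusted p = 8.64e-10, 7.10e-11, 1.94e-11 and 1.51e-11). Lgals3, the macrophage galectin once known as Mac-2, ranged from 1605 to 1906 CPM with RANKL and from 1279 to 1588 CPM in M-CSF alone at day 5 in libraries labelled LysM-Cre. In controls it ranged from 1600 to 1781 CPM with RANKL and from 1094 to 1448 CPM in M-CSF alone. Neither pair of ranges overlapped, and Lgals3 rose 1.27-fold in cells labelled LysM-Cre (log2 0.34, SE 0.12, adjusted p = 0.0247) and 1.34-fold in controls (log2 0.42, SE 0.12, adjusted p = 0.00709).

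The Lgals3 calls at day 5 rested on single libraries. In cells labelled LysM-Cre the call was lost without number 1 with RANKL (Lgals3 log2 0.32, adjusted p = 0.064), number 3 with RANKL (0.27, adjusted p = 0.121), number 2 in M-CSF alone (0.29, adjusted p = 0.11), number 3 in M-CSF alone (0.25, adjusted p = 0.147), and without number 3 in all groups (0.22, adjusted p = 0.252). In controls it was lost without number 1 in M-CSF alone (0.29, adjusted p = 0.0824). At day 3 Lgals3 ranged from 1379 to 1651 CPM with RANKL and from 1396 to 1735 CPM in M-CSF alone in libraries labelled LysM-Cre, and from 1388 to 1567 CPM and from 1343 to 1763 CPM in controls. These ranges overlapped, and the log2 fold changes were −0.01 and −0.06 (95% intervals −0.27 to 0.24 and −0.32 to 0.19), and the value in cells labelled LysM-Cre turned to 0.04 with RLE scaling and with DESeq2, and to 0.07 without number 3.

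Both fatty acid carriers fell at day 3. Fabp5 had 75.5, 105 and 90.7 CPM with RANKL and 406, 455 and 368 CPM in M-CSF alone in libraries labelled LysM-Cre, and 124, 93.2 and 101 CPM against 426, 472 and 348 CPM in controls. Fabp4 was scarce, with 0.861, 1.81 and 2.03 CPM with RANKL and 13.1, 10.9 and 13.9 CPM in M-CSF alone in libraries labelled LysM-Cre, and 2.78, 1.24 and 1.20 CPM against 12.4, 14.6 and 11.9 CPM in controls. The lowest Fabp4 value rests on 20 counts, and neither gene had overlapping groups at day 3. Fabp5 fell 4.54-fold in cells labelled LysM-Cre and 3.92-fold in controls (log2 −2.18 and −1.97, SE 0.26 and 0.25, adjusted p = 3.40e-07 and 1.27e-06). Fabp4 fell 8.06-fold and 7.34-fold (log2 −3.01 and −2.88, SE 0.38 each, adjusted p = 8.81e-07 and 1.47e-06). At day 5, Fabp5 had 205, 236 and 192 CPM with RANKL and 259, 119 and 243 CPM in M-CSF alone in libraries labelled LysM-Cre, and 175, 162 and 176 CPM against 120, 211 and 261 CPM in controls. Fabp4 then had 9.26, 6.33 and 4.77 CPM with RANKL and 9.29, 4.52 and 9.97 CPM in M-CSF alone in libraries labelled LysM-Cre, and 4.66, 4.52 and 3.99 CPM against 4.59, 6.99 and 10.5 CPM in controls. These day 5 ranges overlapped. The log2 fold changes were 0.03 and −0.21 for Fabp5, and −0.23 and −0.75 (95% intervals −0.94 to 0.49 and −1.48 to −0.01, adjusted p = 0.601 and 0.0853) for Fabp4, which took the opposite sign in cells labelled LysM-Cre without number 3 (0.17). Fabp4 in controls was called without number 1 in M-CSF alone (log2 −1.03, adjusted p = 0.027), and also when only the groups compared were fitted.

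Cells that carry these genes for other reasons were looked for by markers. Of the 5 adipocyte markers Lep had no counts and the other markers (Adipoq, Plin1, Cidec and Cfd) summed to at most 0.211 CPM in any library. The 4 endothelial markers summed to 15.6 to 24.99 CPM in M-CSF alone at day 5 and to 3.30 to 9.78 CPM elsewhere. Of the 4 melanocyte markers Tyr and Dct had no counts and Mlana had 12 counts over all 24 libraries, and with Pmel the list summed to 0.0932 to 0.932 CPM. The part of endothelial transcripts in the Fabp4 values was not tested.

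**Figure D2:**
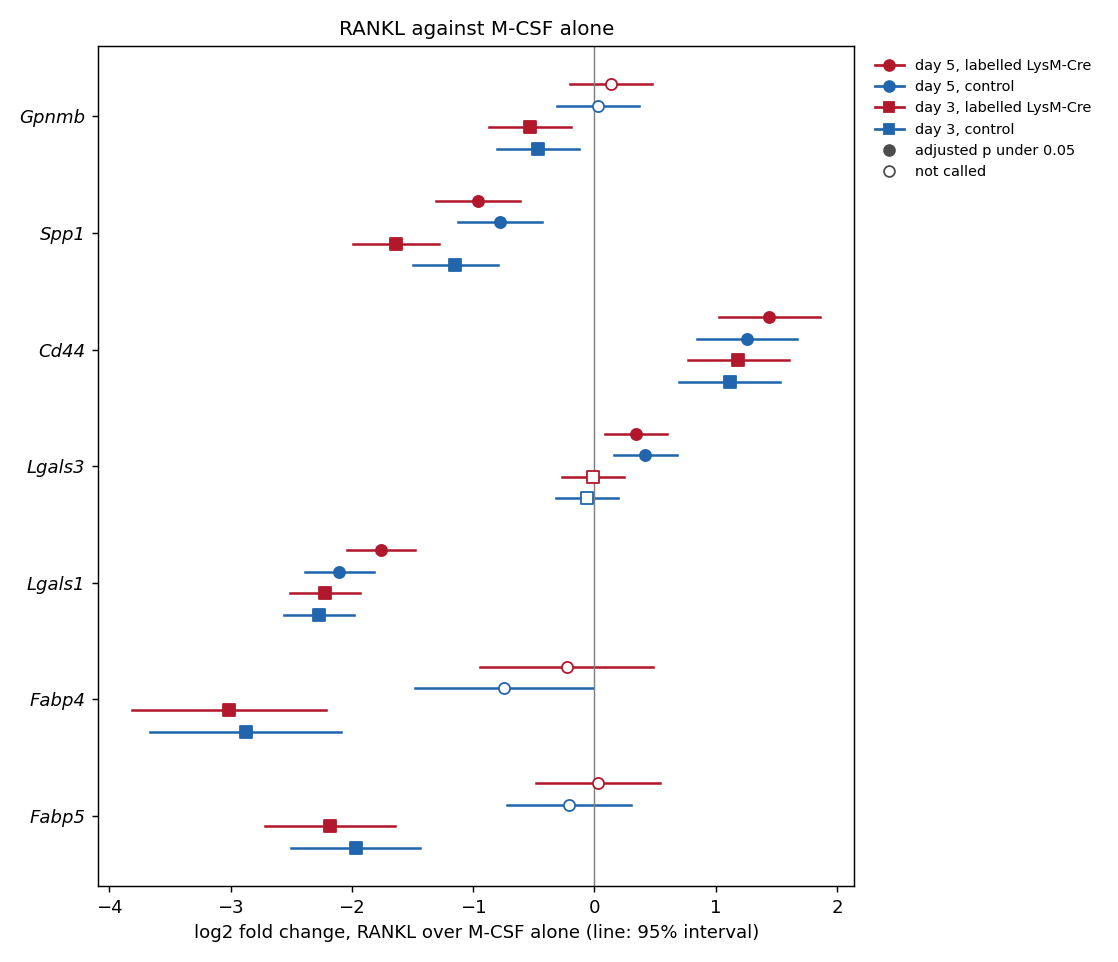
Log2 fold change of RANKL over M-CSF alone for each gene (x axis, line for the 95% interval), at day 5 (circles) and day 3 (squares), labelled LysM-Cre in red and control in blue; filled symbols have an adjusted p under 0.05. Spp1, Cd44 and Lgals1 are filled in all 4 comparisons, and Fabp4 and Fabp5 only at day 3.

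Day 5 was compared with day 3 within each medium. With RANKL, 6 of the 7 genes rose in each genotype, where 17.6% of all genes rose in cells labelled LysM-Cre and 14.1% in controls (33.2% and 26.8% called either way), and Lgals3 was the member not called. Leaving out 1 of the 6 libraries compared at a time, 2 to 4 of the 7 were called in controls and 4 to 6 in cells labelled LysM-Cre. In controls 5 of the 7 were called with RLE scaling and 5 with library totals. Without the filter on low counts 5 were called in cells labelled LysM-Cre and 4 in controls. In M-CSF alone only Fabp5 was called in each genotype, and it fell, where 7.08% and 11.5% of all genes fell (14.3% and 23.7% called either way). Of the genes called in M-CSF alone, 50.3% and 51.5% were higher, and 29.0% and 29.5% when library totals replaced TMM scaling. The medians over the 7 genes with RANKL were 0.71 in cells labelled LysM-Cre and 0.62 in controls, and over all genes −0.02 and 0.00. In M-CSF alone the medians over the 7 genes were −0.13 and 0.17, and over all genes 0.02 and 0.01.

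With RANKL, Gpnmb rose 1.78-fold by day 5 in cells labelled LysM-Cre, with 5125 ± 689 CPM at day 5 and 2875 ± 288 CPM at day 3, and 1.61-fold in controls, with 5279 ± 103 CPM at day 5 and 3282 ± 198 CPM at day 3 (SD, n = 3 each, log2 0.83 and 0.69, SE 0.16 each, adjusted p = 6.73e-04 and 0.00419). Every day 5 library was above every day 3 library. Lgals1 rose 1.64-fold and 1.41-fold (log2 0.71 and 0.49, SE 0.13 each, adjusted p = 4.33e-04 and 0.0095) without overlap, with 275 ± 32.7 CPM at day 5 and 168 ± 35.3 CPM at day 3 in cells labelled LysM-Cre. In controls the Lgals1 call was lost without number 2 at day 3 (log2 0.43, adjusted p = 0.054). Fabp5 rose 2.34-fold in cells labelled LysM-Cre, with 211 ± 22.7 CPM at day 5 and 90.3 ± 14.7 CPM at day 3 (log2 1.22, SE 0.25, adjusted p = 0.00102). In controls it rose 1.61-fold, with 171 ± 7.85 CPM and 106 ± 16.02 CPM (log2 0.69, SE 0.25, adjusted p = 0.0453), a call that was lost without any of the 6 libraries in turn (Fabp5 log2 0.59 to 0.80, adjusted p = 0.064 to 0.169). Fabp4 rose 4.31-fold in cells labelled LysM-Cre, with 6.79 ± 2.28 CPM at day 5 and 1.57 ± 0.621 CPM at day 3 (log2 2.11, SE 0.38, adjusted p = 3.44e-04). In controls it rose 2.49-fold, with 4.39 ± 0.351 CPM and 1.74 ± 0.904 CPM (log2 1.31, SE 0.38, adjusted p = 0.0152), and this call was lost without number 2 or number 3 at day 3 (Fabp4 log2 1.11 each, adjusted p = 0.081 and 0.0607).

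Spp1 and Cd44 also rose with RANKL from day to day without overlap. Spp1 rose 1.41-fold in cells labelled LysM-Cre and 1.45-fold in controls (log2 0.49 and 0.54, SE 0.17 each, adjusted p = 0.0265 and 0.0213), and Cd44 1.51-fold and 1.54-fold (log2 0.60 and 0.62, SE 0.20 each, adjusted p = 0.0246 and 0.025). Both calls rested on single libraries. In cells labelled LysM-Cre the Spp1 call was lost without number 1 or 2 at day 3 (adjusted p = 0.0939 and 0.0565), without number 2 or 3 at day 5 (0.0576 and 0.13), and without number 3 in all groups (log2 0.32, adjusted p = 0.269). In controls it was lost without number 3 at day 3 (adjusted p = 0.0938) and without number 1 or 3 at day 5 (0.0582 and 0.0565). The Cd44 call was lost in cells labelled LysM-Cre without number 1 or 2 at day 3 (adjusted p = 0.0597 and 0.119) and without number 3 at day 5 (0.0872). In controls it was lost without number 1 or 2 at day 3 (0.143 and 0.0561) and without number 1, 2 or 3 at day 5 (0.0574, 0.0679 and 0.0575). Lgals3 had log2 changes of 0.22 and 0.20, without overlap in controls (95% intervals −0.03 to 0.48 and −0.06 to 0.46).

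In M-CSF alone, Fabp5 fell 1.98-fold by day 5 in cells labelled LysM-Cre and 2.10-fold in controls, with no overlap between days (log2 −0.99 and −1.07, SE 0.25 each, adjusted p = 0.0109 and 0.00436). The call in cells labelled LysM-Cre was lost without number 2 at day 5 (log2 −0.70, adjusted p = 0.0624) and when only its 2 groups were fitted (log2 −1.01, adjusted p = 0.0689). Fabp4 had log2 changes of −0.68 and −0.82 (adjusted p = 0.193 and 0.0865), again without overlap. The other 5 genes had log2 changes of −0.28 to 0.48, the highest that of Cd44 in controls (adjusted p = 0.0838). Without number 3 at day 3, Cd44 was called in cells labelled LysM-Cre (log2 0.63, adjusted p = 0.0231) and in controls (log2 0.63, adjusted p = 0.037). Lgals3 in controls was called without number 3 at day 3 or at day 5 (log2 −0.37 and −0.39, adjusted p = 0.0419 and 0.0484), and Fabp4 in controls without number 3 at day 5 (log2 −1.16, adjusted p = 0.0379).

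Summed stromal and osteoblast transcripts were higher in all day 5 libraries than in all day 3 libraries with RANKL, and their ranges overlapped between days in M-CSF alone. The 9 stromal and osteoblast markers summed to 30.2 to 303 CPM in libraries labelled LysM-Cre and 33.8 to 80.5 CPM in controls at day 5 with RANKL, and to 11.5 to 23.5 CPM and 13.4 to 28.9 CPM at day 3. In M-CSF alone they summed to 18.9 to 142 CPM and 12.9 to 119 CPM at day 5, and to 7.92 to 19.2 CPM and 7.90 to 15.3 CPM at day 3. Col1a1 and Col1a2, the chains of type I collagen, made up most of it. The osteoblast genes Bglap, Alpl, Sp7 and Ibsp had group means of at most 0.292 CPM. Stromal cells also express Spp1, Cd44 and Lgals1, and the part of these transcripts in the day results was not tested.

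**Figure D3:**
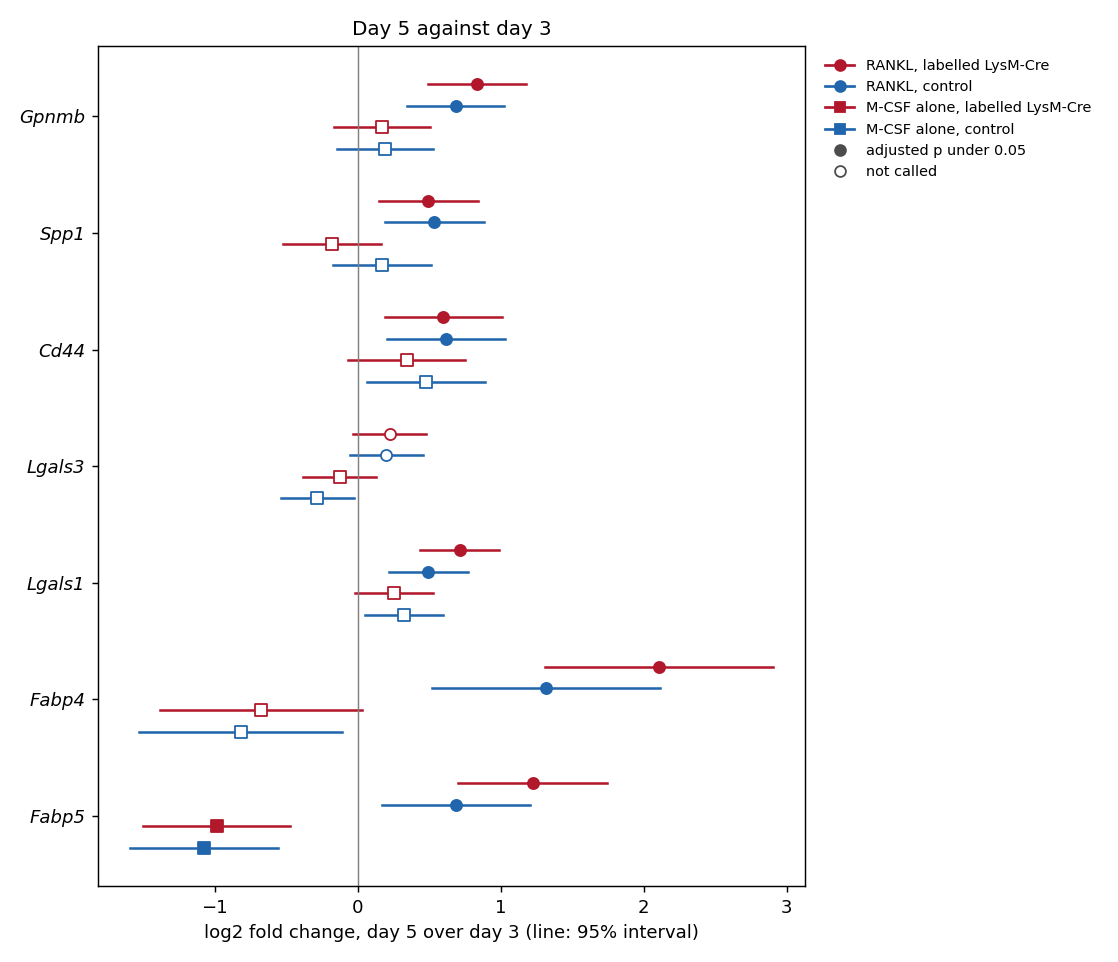
Log2 fold change of day 5 over day 3 for each gene (x axis, line for the 95% interval), with RANKL (circles) and in M-CSF alone (squares), labelled LysM-Cre in red and control in blue; filled symbols have an adjusted p under 0.05. All genes but Lgals3 are filled at right of 0 with RANKL, and Fabp5 alone is filled in M-CSF alone, at left of 0.

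Whether the RANKL response itself changed between days was tested as the response at day 5 minus that at day 3. It was called for Fabp4 and Fabp5 in each genotype, 2 of 7 genes, both higher, where 8.09% of all genes in cells labelled LysM-Cre and 7.26% in controls were called higher (15.2% and 14.0% either way). Of the genes called, 53.1% and 51.9% were higher, and 67.2% and 67.2% with library totals. The difference was 2.78 log2 units for Fabp4 (SE 0.51, adjusted p = 7.03e-04) and 2.21 for Fabp5 (SE 0.35, adjusted p = 1.80e-04) in cells labelled LysM-Cre. In controls it was 2.13 for Fabp4 (SE 0.51, adjusted p = 0.0072) and 1.76 for Fabp5 (SE 0.35, adjusted p = 0.00165). With RANKL both genes rose by day 5, and in M-CSF alone Fabp5 fell, so the media differed by less at day 5. For Gpnmb the difference was 0.66 (95% interval 0.19 to 1.14, adjusted p = 0.0554) and 0.50 (0.02 to 0.97, adjusted p = 0.17). For Spp1 it was 0.68 (adjusted p = 0.0557) and 0.37 (adjusted p = 0.348), for Lgals1 0.46 and 0.17, for Lgals3 0.35 and 0.48, and for Cd44 0.26 and 0.14, none of them called. Leaving out 1 library made some of these calls. In cells labelled LysM-Cre, Gpnmb was called without number 3 at day 5 in M-CSF alone (0.82, adjusted p = 0.0218), Spp1 without number 1 at day 5 with RANKL (0.79, adjusted p = 0.0361) or number 2 at day 3 in M-CSF alone (0.83, adjusted p = 0.0141), and Lgals1 without number 2 at day 3 with RANKL (0.62, adjusted p = 0.0136). In controls Lgals3 was called without number 3 in M-CSF alone at day 3 or at day 5 (0.57 each, adjusted p = 0.037 and 0.0427). These differences share the libraries of the comparisons above and are not separate evidence for them.

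The genotype comparison asks what the Runx1 transgene with Cre does. None of the 7 genes was called at either day in either medium, against 0.0% of all genes in each of the 4 comparisons. Unadjusted p-values under 0.05 were found for 457 and 258 genes with RANKL at day 5 and day 3 and for 948 and 530 genes in M-CSF alone, of 15035, and for 0 of the 7. DESeq2 called 6 and 2 genes at day 5, with RANKL and in M-CSF alone, and 0 at day 3 in either medium. The median log2 fold change of the 7 genes was 0.08 and −0.17 with RANKL at day 5 and day 3, and −0.07 and −0.04 in M-CSF alone, while the median over all genes was −0.0016 to 0.0082.

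The widest genotype difference was that of Fabp4 at day 5 with RANKL, where the 3 libraries labelled LysM-Cre lay above the 3 controls (log2 0.62, 95% interval −0.11 to 1.35, adjusted p = 1). Fabp5 did not overlap in that comparison either (log2 0.30, interval −0.21 to 0.82). Gpnmb at day 3 with RANKL and Lgals1 at day 5 in M-CSF alone lay lower in all libraries labelled LysM-Cre than in all controls (log2 −0.19, interval −0.53 to 0.15, and −0.17, interval −0.45 to 0.10). None of these was called, as was the case for all genes (0.0%). The share of all genes without overlap was not counted, so these separations cannot be set against it. The lowest Fabp4 library labelled LysM-Cre had 4.77 CPM and the highest control 4.66 CPM at day 5 with RANKL. For Gpnmb, Spp1, Cd44, Lgals3 and Lgals1 every interval lay between −0.67 and 0.63, so a log2 difference of 1 in either direction lies outside these intervals, whereas for Fabp4 such a difference lies inside the intervals with RANKL, upward at day 5 and downward at day 3 (log2 −0.17, interval −1.02 to 0.68). Without number 3 labelled LysM-Cre, 39 and 6 genes were called with RANKL at day 5 and day 3, and 110 and 35 in M-CSF alone, and still 0 of the 7. The RANKL response differed between genotypes for 0 of the 7 genes and 0 of all genes, at both days (0.0%). Unadjusted p-values under 0.05 were found for 481 genes at day 5 and 242 at day 3, among them Spp1 at day 3. Its edgeR log2 difference was −0.49 (interval −0.98 to −0.0033, adjusted p = 1).

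**Figure D4:**
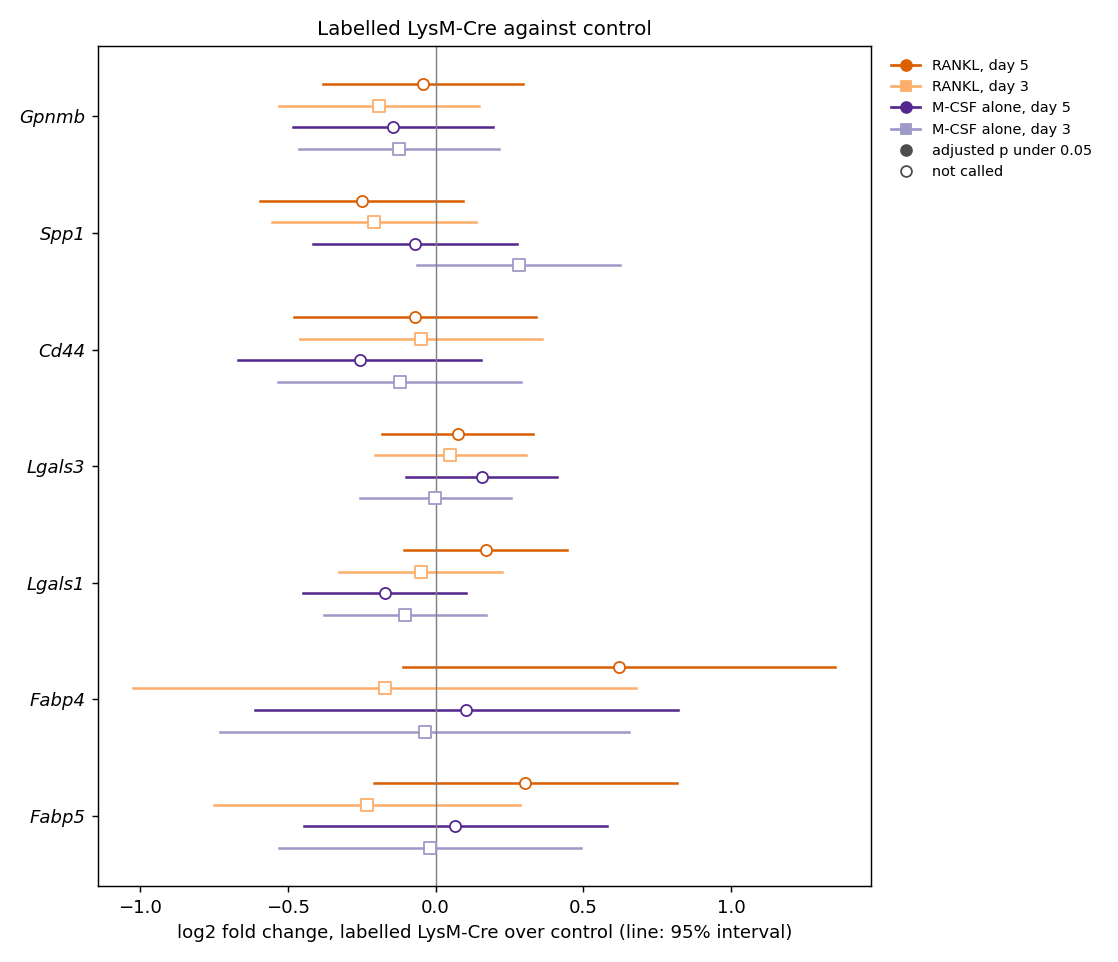
Log2 fold change of libraries labelled LysM-Cre over controls for each gene (x axis, line for the 95% interval), with RANKL (orange) and in M-CSF alone (purple), at day 5 (circles) and day 3 (squares). All symbols are open, none having an adjusted p under 0.05, and all intervals include 0.

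Genes that work with these 7 were followed as lists chosen for their roles, with earlier results of these data known. The counts for these lists are thus descriptions and not independent tests. Their counts stand against the shares of all 15035 genes called with RANKL in either direction, which were 52.4% at day 5 in cells labelled LysM-Cre and 49.4% in controls, and 59.2% and 59.1% at day 3. Of 10 integrin subunits that can bind osteopontin, 8 were tested. With RANKL, 3 rose in each of the 4 comparisons, namely Itgav, Itgb3 and Itga5. Itgb3, the β3 chain of the osteoclast integrin αvβ3, averaged 1091 ± 352 CPM with RANKL and 1.76 ± 0.298 CPM in M-CSF alone at day 5 in cells labelled LysM-Cre (log2 9.28, SE 0.40, adjusted p = 4.36e-13), and is itself one of the osteoclast markers above. Itgav, its αv partner, rose 12.1-fold in cells labelled LysM-Cre and 12.5-fold in controls at day 3. Falls were called for 4 subunits in cells labelled LysM-Cre and 3 in controls at day 5, and for 3 and 3 at day 3, so that 7 and 6 of the 8 were called at day 5 and 6 and 6 at day 3, against the 52.4%, 49.4%, 59.2% and 59.1% of all genes. Itgb5 and Itga8 fell in all 4 comparisons (log2 −2.20 to −2.41 for Itgb5 and −3.98 to −4.71 for Itga8), and Itgb1, the common β1 chain, had log2 changes of −0.15 to 0.00. The list's median log2 fold change was −0.19 and −0.13 at day 5 and −0.33 and −0.40 at day 3, in cells labelled LysM-Cre and in controls.

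The other bone glycoproteins of osteopontin's family were not detectable in quantity. Ibsp had 3 counts over all 24 libraries, and Dmp1, Dspp and Mepe had 0. The 4 syndecans, proteoglycans of which some have been described as partners of Gpnmb and osteopontin, split. Sdc1 rose 58.6-fold and 66.2-fold at day 5 and 36.5-fold and 43.0-fold at day 3 (log2 5.87, 6.05, 5.19 and 5.42), and Sdc3 fell 4.66-fold, 3.95-fold, 4.85-fold and 4.64-fold in the same order. Sdc2 and Sdc4 were not called, so 2 of 4 were called in each comparison, a share near that of all genes (49.4% to 59.2%). Among 7 tested proteases that cleave these proteins, Mmp9 and Mmp14 rose in all 4 comparisons, Mmp9 by 9.69 to 12.46 log2 units and Mmp14 by 6.30 to 6.85. Mmp9, like Itgb3, is itself one of the osteoclast markers above. Adam10, a sheddase of Cd44 and Gpnmb, fell in all 4 (log2 −0.42 to −0.49), and the fall of Adam17 was called at day 3 (log2 −1.09 and −1.06). In all, 2 rose and 2 fell in cells labelled LysM-Cre at day 5, 2 rose and 1 fell in controls, and 2 rose and 4 fell in each genotype at day 3, with list medians of −0.17, −0.13, −0.41 and −0.34. That is 4 and 3 of 7 called at day 5 and 6 and 6 at day 3, against 52.4% and 49.4%, and 59.2% and 59.1%, of all genes.

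Of 10 tested genes of hyaluronan synthesis, binding and breakdown, 4 and 5 rose and 0 fell at day 5, and 3 and 3 rose and 2 and 2 fell at day 3, in cells labelled LysM-Cre and in controls. The 4 and 5 of 10 called at day 5 and 5 and 5 at day 3 were shares near or below those of all genes (52.4%, 49.4%, 59.2% and 59.1%). The list medians were 0.93, 1.09, 1.30 and 1.53. Hyal1, a lysosomal hyaluronidase, rose 3.96-fold and 3.90-fold at day 5 and 8.34-fold and 6.93-fold at day 3. Vcan, a hyaluronan-binding proteoglycan, rose 21.0-fold and 28.8-fold at day 5 and 8.32-fold and 11.6-fold at day 3. Hmmr, another hyaluronan receptor whose transcript also follows the cell cycle, rose at day 5 (log2 2.93 and 3.43) and fell at day 3 (log2 −1.58 and −1.41). Of the 4 genes linking Cd44 to actin, Nf2 rose in all comparisons (log2 0.58 to 0.81), Msn, the most counted, in none (log2 −0.17 to 0.01), and Ezr and Rdx in some. That made 2 and 2 called at day 5 and 1 and 2 at day 3, of 4 genes, where 49.4% to 59.2% of all genes were called, with no falls and medians of 0.34, 0.35, 0.26 and 0.38.

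**Figure D5:**
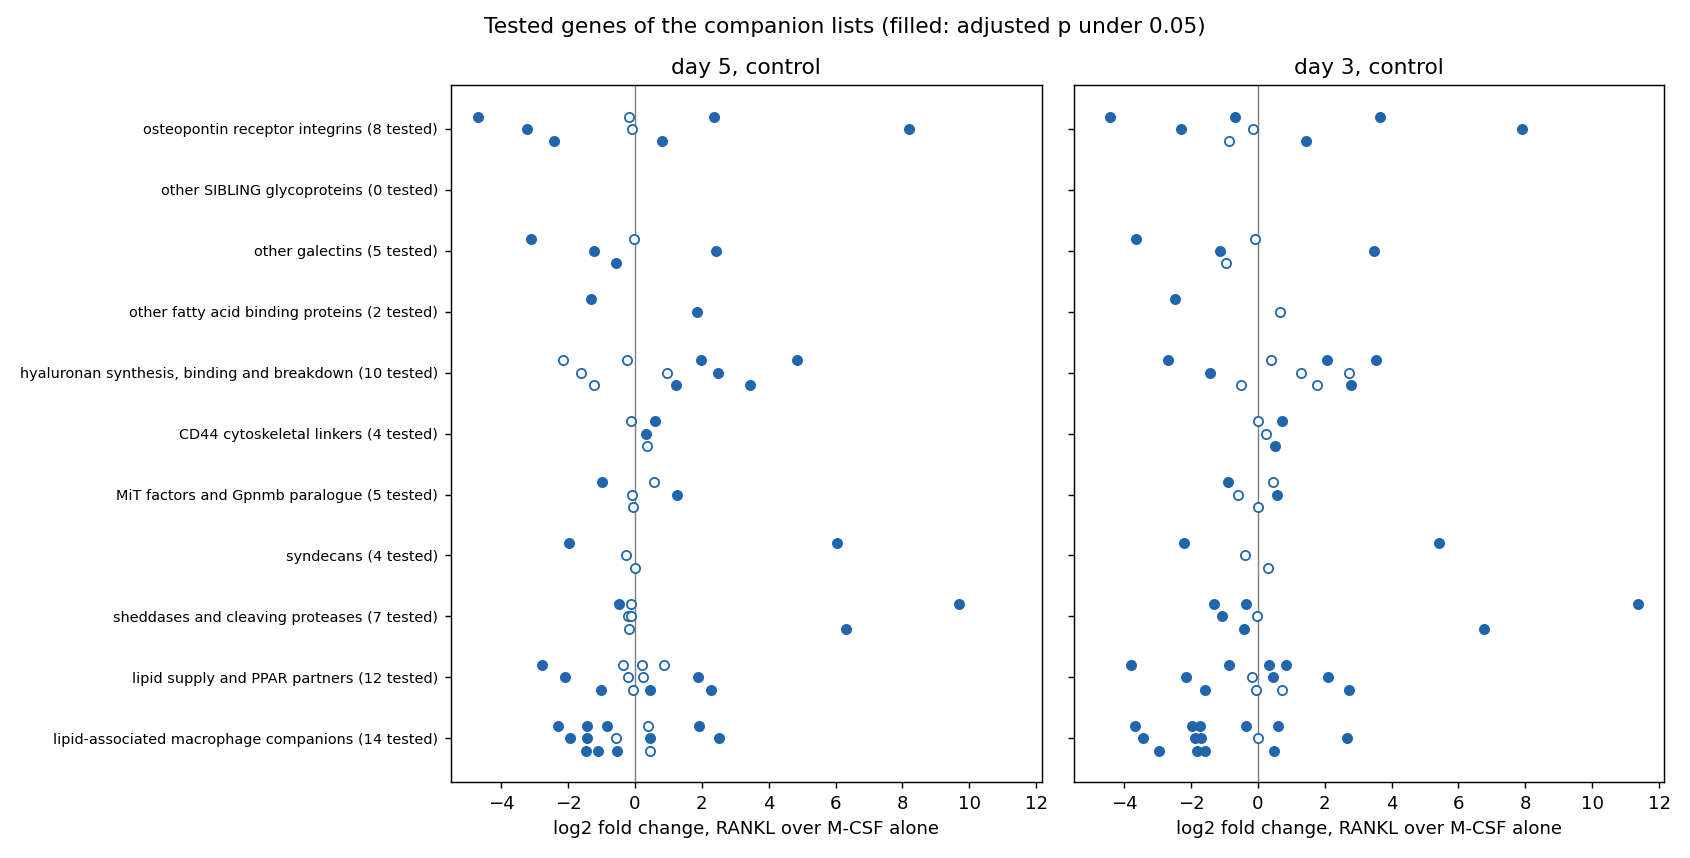
Log2 fold change of RANKL over M-CSF alone in controls (x axis) for each tested gene of the lists named at left, at day 5 (left) and day 3 (right); filled points have an adjusted p under 0.05 and the vertical offsets only separate points. The points furthest to the right are Mmp9, Itgb3, Mmp14 and Sdc1, and no gene of the other bone glycoproteins passed the filter on low counts.

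Of the MiT factors, which bind CATGTG and CACGTG and are known to drive Gpnmb, Mitf and Tfeb were not called in any of the 4 comparisons (log2 −0.06 to 0.47 and −0.34 to 0.22). Tfe3 fell in all (log2 −0.76 to −0.99) and Tfec rose in all (log2 0.44 to 1.25). Pmel, the closest relative of Gpnmb, had at most 0.580 CPM in any group mean and was not called. List medians were 0.00 and −0.06 at day 5 and 0.22 and 0.01 at day 3. Among other galectins 5 of 9 listed were tested, of which 1 rose and 3 fell at day 5 and 1 rose and 2 fell at day 3, in each genotype, against 52.4% and 49.4% of all genes called at day 5 and 59.2% and 59.1% at day 3. Lgals9 fell 9.38-fold and 8.69-fold at day 5 and 13.6-fold and 12.5-fold at day 3. Lgals3bp, which encodes a glycoprotein that galectin-3 binds, fell 2.76-fold, 2.35-fold, 2.32-fold and 2.17-fold, and Lgalsl, a galectin-like gene, rose by 2.41 to 3.47 log2 units. The list medians were −0.67, −0.56, 0.03 and −0.96.

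Of the other fatty acid carriers only Fabp3 and Fabp7 were tested. Fabp7 rose with RANKL at day 5 (log2 2.24 and 1.86), and rose from day to day with RANKL as Fabp4 and Fabp5 did (log2 1.77 in cells labelled LysM-Cre and 1.21 in controls). Fabp3 fell in all 4 RANKL comparisons (log2 −1.30 to −3.29) from at most 1.399 CPM in M-CSF alone. Of 12 genes of lipid supply and of PPAR signalling, through which Fabp4 is induced, 3 rose and 3 fell at day 5 and 5 rose and 4 fell at day 3 in each genotype, against 52.4% and 49.4% of all genes called at day 5 and 59.2% and 59.1% at day 3, with medians of 0.08, 0.08, 0.20 and 0.14. Pparg, like Fabp4, rose from day to day with RANKL. It averaged 15.5 CPM in cells labelled LysM-Cre and 17.0 CPM in controls at day 5, and 3.05 and 3.39 CPM at day 3 (day difference log2 2.35 and 2.32). In M-CSF alone it also rose (log2 0.65 and 0.80), unlike Fabp4, and its fall with RANKL was called at day 3 (log2 −1.65 and −1.57). Cd36, a fatty acid importer, fell 4.79-fold and 6.83-fold at day 5 and 12.9-fold and 13.7-fold at day 3. Rxra, the partner receptor of PPARs, fell in all 4 comparisons (log2 −2.02 to −2.19), and Acsl1, which activates fatty acids, rose in all (log2 1.88 to 2.10).

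Of 14 genes that accompany Gpnmb, Spp1 and Fabp5 in lipid-associated macrophages of other tissues, 4 rose and 7 fell with RANKL at day 5 in cells labelled LysM-Cre and 3 rose and 8 fell in controls. At day 3, 3 rose and 9 fell, and 3 rose and 10 fell, with medians of −0.67, −0.69, −1.47 and −1.71. Of all genes, 52.4% and 49.4% were called at day 5 and 59.2% and 59.1% at day 3. Trem2, a lipid receptor, fell 3.34-fold and 3.83-fold at day 5 and 7.70-fold and 7.74-fold at day 3, and Apoe fell 4.65-fold, 4.91-fold, 9.19-fold and 12.6-fold. Cd63, a lysosomal membrane protein, rose in all 4 (log2 0.44 to 0.48). From day 3 to day 5 with RANKL, 10 of the 14 rose in cells labelled LysM-Cre and 8 in controls, and none fell, where 17.6% and 14.1% of all genes rose, with medians of 1.26 and 0.85. In M-CSF alone 3 and 4 rose, where 14.3% and 23.7% of all genes were called in either direction, those called lower being 7.08% and 11.5% of all genes. Unlike the shares with RANKL, the 14.3% and 23.7% are not of rises only. In the genotype comparisons no gene of any of these lists was called, as was the case for all genes (0.0%).

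Genes with the most similar pattern over the 24 libraries were ranked by the root mean square difference of log2 CPM after centring each gene, among 10453 genes. For Gpnmb they were Taldo1 (0.150), Calm2 (0.182) and Tmem161a (0.192), and for Spp1 Rps6ka4 (0.184), Ccnd3 (0.196) and Commd10 (0.214). For Cd44 they were Slc35e4 (0.156), Mars2 (0.158) and Traf3 (0.163). Lgals3 was nearest to Gpkow (0.112), Kdelr1 (0.131) and Unc119b (0.136), and Lgals1 to Arrb2 (0.136), Prkacb (0.194) and Dock1 (0.195). Fabp5 was nearest to Gypc (0.302), Wdr62 (0.310) and Dtnbp1 (0.322). Fabp4 was the only member with another member among its nearest genes, with Nlrc3 at 0.377, Fabp5 at 0.407 and Ptgr1 at 0.442. Gpnmb and Spp1 were not near each other by this measure. The nearest member to Gpnmb was Lgals3 (0.352), and the nearest to Spp1 was Lgals1 (0.554).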

How the data were processed

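The deposited table holds whole-number read counts per gene for 24 libraries, made by the authors, with each gene's position and length per the file headers. Tools named in the submitters' processing notes are STAR and DESeq2, and the build named there is GRCm39, while 98.3% of the gene IDs shared with GENCODE M21 lie at the GRCm38 position. Gene length, deposited in bases, was used only to set levels per kb. All 24 libraries (18975750 to 36523995 counts) entered one edgeR 4.0.16 quasi-likelihood fit in R 4.3.3, with a mean for each group, filterByExpr (15035 genes kept), TMM scaling and Benjamini-Hochberg adjustment over all tested genes. SE is the log2 fold change over the square root of F. The fit was tested on simulated data. Alternatives were RLE scaling, library totals, no filter, replicate blocks, the groups of a comparison only, DESeq2 1.42.0, and leaving out libraries. The 7 genes and all lists were chosen with earlier results of these data known. The text names the 7 genes in every comparison, Runx1, tested list members, and the 3 nearest genes of each by pattern, among genes with symbols that are not predicted and an average log2 CPM of at least 1. After TMM scaling, 1 count was worth between 0.0286 and 0.0542 CPM, by library.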

Additional observations from a re-analysis of the deposited data

Results flagged for a closer look

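The RANKL response of both fatty acid carriers differed between days in each genotype, by the test of the difference itself (edgeR, response at day 5 minus response at day 3). In cells labelled LysM-Cre the difference was 2.78 log2 units for Fabp4 and 2.21 for Fabp5, and in controls it was 2.13 for Fabp4 and 1.76 for Fabp5. These 4 differences passed the threshold under every alternative run. Both genes were lower with RANKL at day 3 in every library, and their ranges overlapped at day 5.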

How the results depend on the processing

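The number of the 7 genes called differed from the reported count by over 1.5 times in few settings. For day 5 against day 3 in M-CSF alone it was 1 in each genotype, and in controls 2 with library totals, 3 with a replicate block by number and 3 with a replicate block nested in genotype. In cells labelled LysM-Cre it was 0 when only the groups of the comparison were fitted. For the RANKL response between days in cells labelled LysM-Cre it was 2, and 5 with library totals. Without 1 library at a time, the count for the day with RANKL was 2 to 4 in controls (6 with all libraries), and for the day in M-CSF alone 1 to 3 in controls and 0 to 2 in cells labelled LysM-Cre. It stayed at 0 in the 4 genotype comparisons. With the blocks, the Cd44 and Lgals1 day differences in M-CSF alone were called in controls (0.51 and 0.33 by number, adjusted p = 0.0288 and 0.0396, edgeR), and the Fabp5 day difference with RANKL in controls was not (0.69, adjusted p = 0.0538). The labels do not say what a number marks. Pairs of libraries from different groups of a genotype were correlated by the deviations of log2 CPM from their group means. Such deviations cancel within a group, which pulls different-number correlations down where same-number ones are high. Correlations over 0.1 were found in 11 of 18 same-number pairs among libraries labelled LysM-Cre and 4 of 18 among controls. For different numbers they were found in 4 of 36 and 0 of 36. Between the genotypes, where each check chose among 3 numbers, the best correlation was with the own number in 17 of 48 checks.

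Values near 0 changed sign. Lgals3 with RANKL at day 3 in cells labelled LysM-Cre was 0.038 with RLE scaling, 0.037 with DESeq2 and 0.066 without number 3. The Lgals3 genotype difference at day 3 in M-CSF alone was 0.012 without the filter, 0.0027 with the block by number and 0.024 without number 3. Also without number 3, the genotype difference was 0.032 for Lgals1 at day 3 with RANKL, 0.048 for Fabp5 at day 3 in M-CSF alone, and −0.10 for Fabp4 and −0.068 for Fabp5 at day 5 in M-CSF alone. Fabp4 with RANKL at day 5 in cells labelled LysM-Cre was 0.17, and the Gpnmb day difference in M-CSF alone −0.063. Leaving out 1 library at a time turned the sign of further values, none of them called. In the genotype comparison at day 5 with RANKL, Gpnmb ran from −0.14 to 0.029. In that at day 3 with RANKL, Fabp4 ran from −0.42 to 0.35, Cd44 ran from −0.20 to 0.074, Lgals3 ran from −0.019 to 0.11 and Lgals1 ran from −0.24 to 0.039. In that at day 5 in M-CSF alone, Fabp4 ran from −0.15 to 0.45, Fabp5 ran from −0.19 to 0.34 and Gpnmb ran from −0.32 to 0.0068. In that at day 3 in M-CSF alone, Gpnmb ran from −0.25 to 0.053, Lgals3 ran from −0.097 to 0.11, Fabp4 ran from −0.11 to 0.059, Fabp5 ran from −0.13 to 0.084, Cd44 ran from −0.41 to 0.051 and Lgals1 ran from −0.22 to 0.00098. For RANKL at day 5 in cells labelled LysM-Cre, Gpnmb ran from −0.046 to 0.28 and Fabp5 ran from −0.28 to 0.20. For RANKL at day 5 in controls, Gpnmb ran from −0.12 to 0.092 and Fabp5 ran from −0.50 to 0.0057. For RANKL at day 3 in cells labelled LysM-Cre, Lgals3 ran from −0.082 to 0.084. For RANKL at day 3 in controls, Lgals3 ran from −0.15 to 0.042. For the day in M-CSF alone in controls, Spp1 ran from −0.0059 to 0.34. For the genotype difference in RANKL response at day 5, Lgals3 ran from −0.18 to 0.027, Fabp5 ran from −0.033 to 0.50 and Gpnmb ran from −0.044 to 0.28. For that at day 3, Lgals3 ran from −0.061 to 0.15, Cd44 ran from −0.10 to 0.36, Fabp4 ran from −0.38 to 0.40, Gpnmb ran from −0.25 to 0.054 and Lgals1 ran from −0.13 to 0.17. For the RANKL response between days in cells labelled LysM-Cre, Cd44 ran from −0.028 to 0.43. For that in controls, Cd44 ran from −0.030 to 0.26. The cause was not tested.

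Of all genes, 798 and 2089 were called for the day in M-CSF alone when only the groups compared were fitted, against 2143 and 3570, in cells labelled LysM-Cre and in controls. Library totals moved the median over all genes by more than 0.1 for that comparison in controls (−0.09 against 0.01) and for the RANKL response between days (0.08 and 0.09 against −0.02 and −0.02). Single libraries also moved these totals. For the day with RANKL, 4027 genes were called in controls, and 2621 without number 1 at day 3, 2627 without number 2 at day 3 and 2614 without number 1 at day 5, and in cells labelled LysM-Cre 4995, and 3316 without number 2 at day 5. For the day in M-CSF alone, controls had 1920 without number 1 at day 3 and 2049 without number 1 at day 5, and cells labelled LysM-Cre 1287 and 1392 without number 1 or 2 at day 3 and 1229 and 1399 without number 2 or 3 at day 5. Genotype calls of 0 became 7 without number 3 labelled LysM-Cre at day 5 with RANKL, and 22 and 3 in M-CSF alone at day 5 without number 3 labelled LysM-Cre or number 1 of controls. With 3 libraries a group, Fabp4 at day 3 with RANKL rests on the fewest counts and had the widest intervals of the 7.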
